A study of Mus musculus with 8 samples.

Results

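The genes of the HUSH complex and of its histone H3 lysine 9 (H3K9) silencing partners were followed in testes with and without Morc2b. The set holds 10 of the 24651 genes in the data, picked by the roles of their products: Fam208a, Mphosph8 and Pphln1 for the HUSH core, Setdb1, Atf7ip and Trim28 for the SETDB1 arm, and Suv39h1, Suv39h2, Ehmt1 and Ehmt2 for other H3K9 methyltransferases. HUSH is a nuclear complex that silences transposons and newly integrated DNA, and its chromodomain subunit binds trimethylated H3K9. The complex brings in the methyltransferase SETDB1, which writes that mark, and the ATPase MORC2, which compacts the silenced chromatin. MORC2 is called MORC2A in mouse, and MORC2B is its germ cell relative, so the comparison asks whether transcripts of the machinery around MORC2 differed when Morc2b was lost. The rule behind the set names genes by role and uses no measured value.

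The data are RNA-seq counts from whole testes of 8 male mice at postnatal day 12, 4 labelled wild type and 4 labelled Morc2b-/-, with 1 library for each pair of testes. All animals were on a mixed strain background. In the mutant allele, made in V6.5 embryonic stem cells of hybrid strain origin and carried by mice from 1 targeted cell clone, the coding exon of Morc2b is replaced by a PGKNeo cassette in every cell. The controls are wild type in the sample labels and in the paper's RNA-seq methods, but the design text of the series gives them as Morc2b+/-. Each library held 27144796 to 36941755 counts on 35819 listed RefSeq transcripts. Values below are counts summed per gene symbol, or CPM, in which TMM scaling makes counts comparable between libraries.

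Morc2b itself was at 11.7, 16.2, 0.857 and 39.98 CPM in wild type replicates 1 to 4 and at 0.323, 0.270, 3.29 and 0.0688 CPM in Morc2b-/- replicates 1 to 4. The library labelled wild type 3 was thus below the library labelled Morc2b-/- 3, against their labels, and each member is also given below without both of these libraries. The paper gives Morc2b a low level in zygotene cells and a higher one from pachytene onward. Summed CPM of 6 pachytene markers were 127.5, 98.2, 23.6 and 296.8 in wild type replicates 1 to 4. They were 26.6, 38.9, 151.7 and 35.0 in Morc2b-/- replicates 1 to 4. Of these markers, Piwil1, Adam2 and Ybx2 are among the genes the paper called in these samples. The part of meiotic stage in the Morc2b values was not tested. The allele keeps an untranslated exon, and whether reads from it are part of the Morc2b counts was not tested. Markers of Sertoli cells summed to between 1379 and 1661 CPM and those of spermatogonia to between 692.5 and 959.6 CPM in all libraries, so the main cell types of a young testis were present. Spermatid markers were highest in wild type replicate 1 (145.2 CPM) and Morc2b-/- replicate 3 (294.1 CPM), against at most 32.0 CPM elsewhere, and epididymis markers in wild type replicate 1 (249.0 CPM). In whole testes, fewer cells of a type and less RNA per cell cannot be told apart.

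The first question was which of the 10 genes the counts could read. A read shared by several listed transcripts was counted for none of them, so a gene listed under several transcripts is read only where these differ. The 10 genes are listed under 25 transcripts, of which 16 had 0 counts in every library. Mphosph8, Trim28 and Atf7ip are listed under 1 transcript each and had 92836, 192442 and 60160 counts over the 8 libraries. The other 7 genes are listed under more than 1 transcript and had at most 2638 counts each. Only the former 3 genes can be read as levels of the whole transcript.

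Setdb1, listed under 3 transcripts, and Ehmt1 and Ehmt2, listed under 4 each, had 0 counts in all 8 libraries. A count of 0 allows up to 3 counts in a library, or 0.0811 to 0.110 CPM, but this limit holds only for reads assigned to a single transcript. It is no measure of whether these 3 genes were expressed. Among all genes, 25.6% of those listed under 3 or more transcripts had 0 counts, against 17.1% of those listed under 1 transcript. Counts at 0 are therefore also common among genes with 1 transcript.

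**Figure D1:**
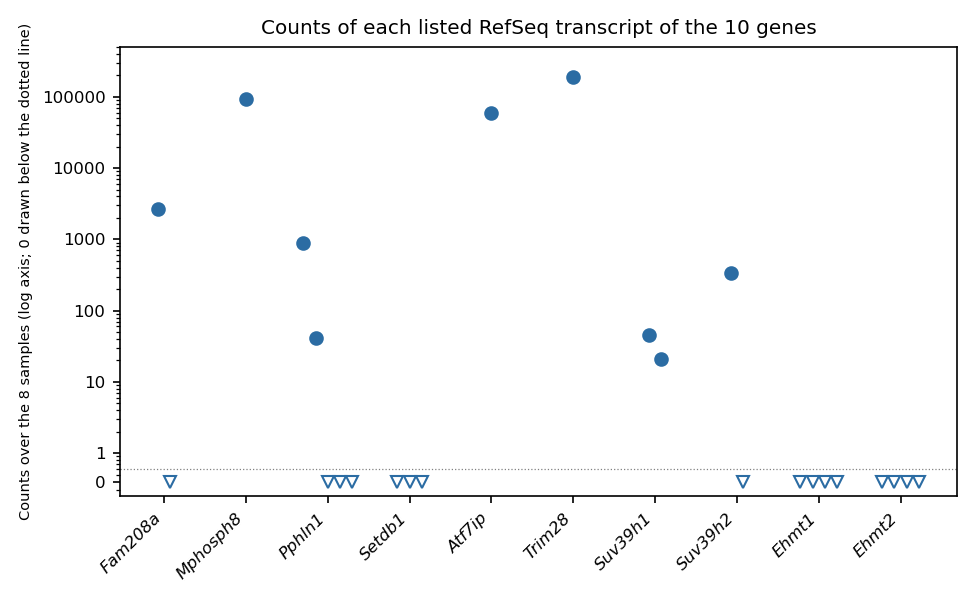
Each symbol is 1 listed RefSeq transcript of the gene on the horizontal axis, and the vertical axis gives its counts summed over the 8 libraries on a log scale, with transcripts at 0 drawn as open triangles below the dotted line. Mphosph8, Trim28 and Atf7ip stand highest at 92836, 192442 and 60160 counts, and all transcripts of Setdb1, Ehmt1 and Ehmt2 lie at 0.

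In the HUSH core, Mphosph8 was the gene read best. Its product, MPP8, is the subunit whose chromodomain binds methylated H3K9. The gene lies on the plus strand at chr14:57287085-57316267 (NCBIM37, mm9), and its longest coding transcript has 14 exons. Mphosph8 was at 330.6, 420.6, 345.7 and 389.7 CPM in wild type replicates 1 to 4, with a mean of 371.6 ± 41.1 CPM (SD, n = 4). It was at 326.9, 382.6, 345.1 and 373.2 CPM in Morc2b-/- replicates 1 to 4, with a mean of 356.9 ± 25.6 CPM (SD, n = 4). The genotypes overlapped, and within each genotype replicates 2 and 4 were higher than replicates 1 and 3. Between the genotypes the log2 fold change, Morc2b-/- over wild type, was -0.06 (standard error 0.09, 95% interval -0.25 to 0.14, adjusted p = 0.9998 in edgeR's quasi-likelihood test), and -0.07 without both libraries numbered 3.

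Fam208a, now named Tasor, encodes the scaffold on which the other HUSH subunits assemble. It lies on the plus strand at chr14:28242033-28296738 (NCBIM37) with 24 exons in its longest coding transcript. It is listed under 2 transcripts, and all of its counts fell on 1 of them, which had 259 to 396 counts per library. These were 10.6, 11.0, 9.25 and 12.4 CPM in wild type and 11.1, 8.95, 9.20 and 10.3 CPM in Morc2b-/- testes. The highest library was wild type replicate 4 and the lowest was Morc2b-/- replicate 2, with the genotypes overlapping between them. The fitted log2 fold change was -0.13 (standard error 0.12, 95% interval -0.41 to 0.15, adjusted p = 0.9998 in edgeR's test). It was -0.16 without both libraries numbered 3 and -0.06 without wild type replicate 4.

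Pphln1 encodes periphilin, the RNA-binding subunit of HUSH. It lies on the plus strand at chr15:93228781-93322344 (NCBIM37) with 10 exons in its longest coding transcript. Of its 5 listed transcripts, 1 carried 893 of its 934 counts, another carried 41, and the other 3 were at 0. Pphln1 was at 3.54, 3.81, 3.25 and 3.99 CPM in wild type and at 3.52, 3.81, 3.64 and 3.61 CPM in Morc2b-/- replicates 1 to 4. All Morc2b-/- values lay inside the wild type range. For Pphln1 the log2 fold change was -0.0013 (standard error 0.13, 95% interval -0.29 to 0.29, adjusted p = 0.9998 in edgeR's test), and -0.05 without both libraries numbered 3. A site at chr17:66576588-66577273 matches 58.7% of the Pphln1 coding sequence at 91.7% identity, so some of its reads could have had more than 1 alignment. None of the Pphln1 coding sequence had a copy elsewhere of at least 97% identity.

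**Figure D2:**
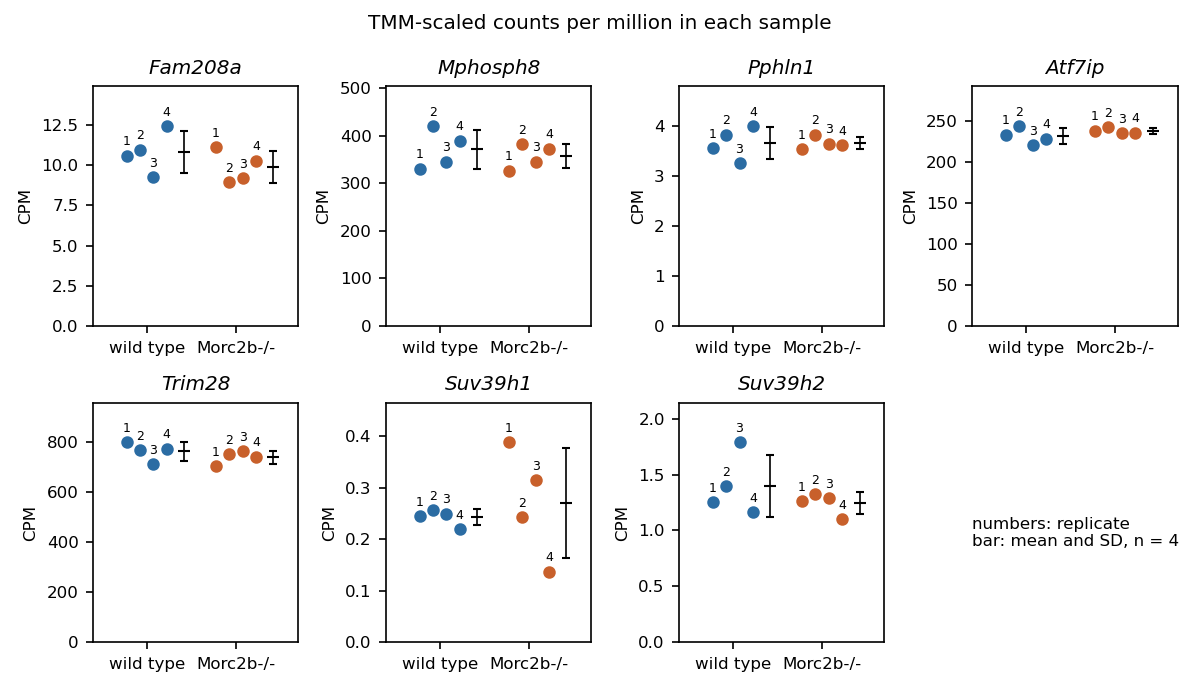
Each panel shows 1 gene, with TMM-scaled CPM on a vertical axis that starts at 0 and the 4 wild type (blue) and 4 Morc2b-/- (orange) libraries side by side, numbered by replicate. The black bars are the mean and SD of each genotype (n = 4), and in all 7 genes with counts the genotypes overlap.

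In the SETDB1 arm, Trim28 and Atf7ip were read over their whole transcripts and Setdb1, the methyltransferase itself (chr3:95127447-95161124, minus strand, NCBIM37), was not read at all. TRIM28, also called KAP1, is the corepressor that KRAB zinc finger proteins use to bring SETDB1 to transposons. Its gene lies on the plus strand at chr7:13609501-13616384 (NCBIM37), with 17 exons in the longest coding transcript. Trim28 was at 798.1, 766.7, 711.1 and 773.8 CPM in wild type replicates 1 to 4 (mean 762.4 ± 36.8 CPM, SD, n = 4). It was at 702.3, 752.1, 762.8 and 741.2 CPM in Morc2b-/- replicates 1 to 4 (mean 739.6 ± 26.4 CPM, SD, n = 4). The 3 highest libraries were wild type, but wild type replicate 3 was below all Morc2b-/- libraries except replicate 1. Its log2 fold change was -0.04 (standard error 0.05, 95% interval -0.16 to 0.08, adjusted p = 0.9998 in edgeR's test), and -0.09 without both libraries numbered 3.

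ATF7IP binds SETDB1 and keeps it stable in the nucleus. Its gene lies on the plus strand at chr6:136467372-136555898 (NCBIM37) and has 15 exons. Atf7ip was at 233.8, 244.3, 221.0 and 228.8 CPM in wild type replicates 1 to 4 (mean 232.0 ± 9.76 CPM, SD, n = 4). It was at 238.3, 243.1, 235.7 and 235.9 CPM in Morc2b-/- replicates 1 to 4 (mean 238.3 ± 3.46 CPM, SD, n = 4). Wild type replicate 2 was the highest library of all, and all Morc2b-/- values lay inside the wild type range. For Atf7ip the log2 fold change was 0.04 (standard error 0.05, 95% interval -0.07 to 0.14, adjusted p = 0.9998 in edgeR's test), and 0.02 without both libraries numbered 3.

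The other H3K9 methyltransferases were read poorly. SUV39H1 and SUV39H2 place trimethylated H3K9 on pericentromeric heterochromatin, and SUV39H2 is the form known for expression in testis. Suv39h2 (chr2:3373087-3392303, minus strand, NCBIM37) held 32 to 50 counts per library, all on 1 of its 2 listed transcripts. These were 1.25, 1.39, 1.79 and 1.16 CPM in wild type and 1.26, 1.33, 1.29 and 1.10 CPM in Morc2b-/- testes. Wild type replicate 3 was the highest library, and the other 7 lay between 1.10 and 1.39 CPM. The log2 fold change was -0.17 (standard error 0.19, 95% interval -0.60 to 0.27, adjusted p = 0.9998 in edgeR's test). It was -0.04 without both libraries numbered 3 and -0.03 without wild type replicate 3 alone.

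Suv39h1 (chrX:7638297-7651886, minus strand, NCBIM37) held 9, 7, 7 and 7 counts in the wild type libraries and 12, 9, 11 and 4 in the Morc2b-/- libraries, summed over its 2 listed transcripts. The highest and the lowest library were both Morc2b-/-. These counts were too few for edgeR's filter, and the gene was not tested. Ehmt1 (chr2:24646289-24775129, minus strand) and Ehmt2 (chr17:35035414-35050997, plus strand, NCBIM37), which encode GLP and G9a, the partners that write mono- and dimethylated H3K9 in euchromatin, gave no value.

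Taken over the 10 genes, 3 had 0 counts, 1 had too few counts, and 6 were tested among 13507 genes. At an adjusted p under 0.05 in edgeR's test 0 of the 6 were called, beside 0 of all genes tested (0%), and DESeq2 and limma-voom also called 0 of the 6. Morc2b, the targeted gene, was itself not called (adjusted p = 0.9998 in edgeR's test). The paper did call genes in these samples, with Cuffdiff on FPKM at an FDR under 0.05, and the genes it chose for PCR also differed. A call of 0 genes here thus does not show that no gene changed. At an unadjusted p under 0.05 there were 0 of the 6, beside 249 of all genes (1.84%), and the smallest unadjusted p of a member in edgeR's test was 0.316, for Fam208a. The genotypes did not overlap in 0 of the 6 genes and in 174 of all genes (1.29%). With 6 genes, counts of 0 are close to what these background shares give and say little on their own. The log2 fold change was above 0 in 1 gene and below 0 in 5, with a median of -0.05, beside a median of 0.0022 over all genes tested.

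The intervals say more than the calls, but each includes both libraries numbered 3, and no intervals are given without them. Leaving those libraries out moved the log2 fold change of Trim28 from -0.04 to -0.09 and that of Suv39h2 from -0.17 to -0.04. For Trim28 the 95% interval placed the Morc2b-/- level between 0.893 and 1.05 times the wild type level, for Atf7ip between 0.954 and 1.10 times, and for Mphosph8 between 0.839 and 1.10 times. For Fam208a it ran from 0.754 to 1.11 times and for Pphln1 from 0.816 to 1.22 times, each over the part of the transcript that was read. For Suv39h2 it ran from 0.658 to 1.21 times and so leaves room for the largest change. A p that misses the threshold does not show that the genotypes were alike. Each 95% interval is centred on its estimate and gives the range of changes that the fit to the 8 libraries allowed.

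**Figure D3:**
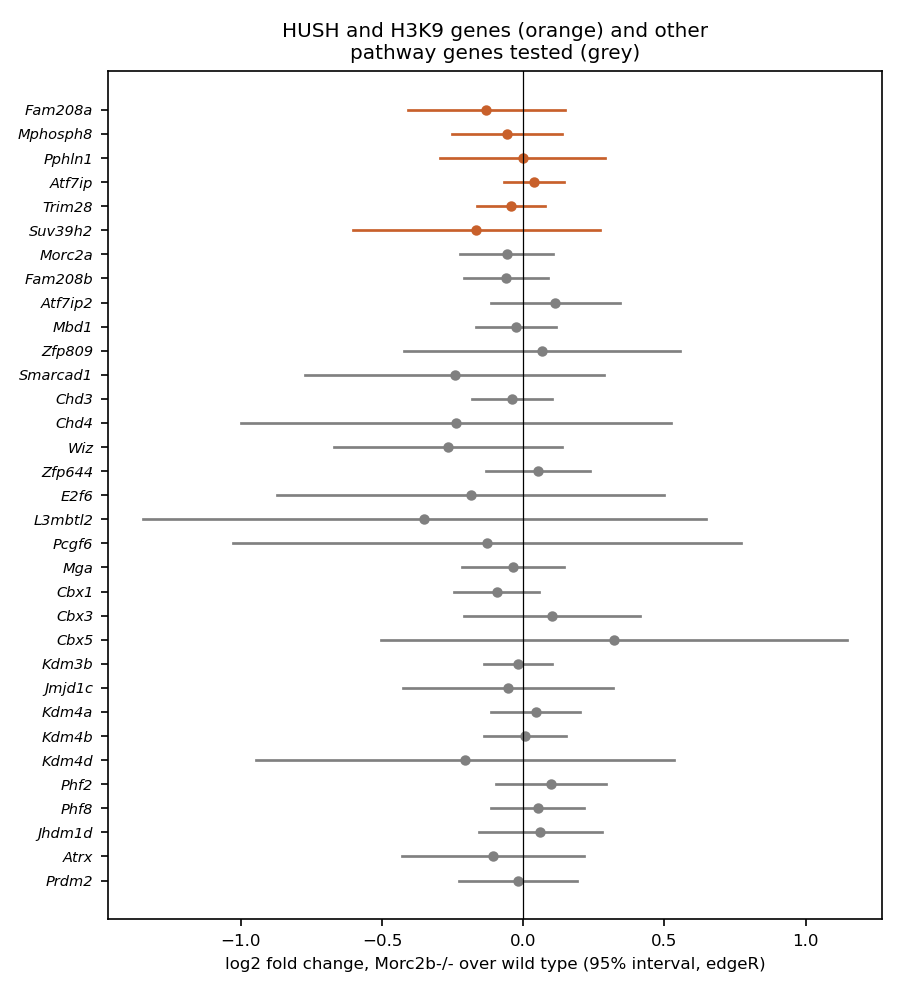
Points are log2 fold changes of Morc2b-/- over wild type testes and lines their 95% intervals from edgeR, for the 6 members tested (orange) and the 27 other pathway genes tested (grey), with Morc2b left out for its scale. Every interval drawn includes 0, and those of Atf7ip (-0.07 to 0.14) and Trim28 (-0.16 to 0.08) are the narrowest of the members.

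The balance between partners was then compared within libraries. Of 4 ratios considered, those of Ehmt1 to Ehmt2 and of Atf7ip to Setdb1 gave no value, since a gene at 0 counts is in each. Mphosph8 had 31.2, 38.3, 37.4 and 31.3 times the counts of Fam208a in wild type replicates 1 to 4 and 29.4, 42.7, 37.5 and 36.3 times in Morc2b-/- replicates 1 to 4. The log2 ratio averaged 5.10 ± 0.16 in wild type and 5.17 ± 0.22 in Morc2b-/- testes (SD, n = 4), a difference of 0.07 (exact two-sided permutation test, p = 0.629, where the smallest possible p is 0.0286). Suv39h2 had 5.11, 5.43, 7.14 and 5.29 times the counts of Suv39h1 in wild type and 3.25, 5.44, 4.09 and 8.0 times in Morc2b-/- testes. The log2 ratio differed by -0.21 between the genotypes (exact two-sided permutation test, p = 0.429), from 2.24 ± 0.22 to 2.03 ± 0.43 (SD, n = 4). Without both libraries numbered 3 the differences were 0.09 for Mphosph8 to Fam208a and -0.04 for Suv39h2 to Suv39h1 (exact permutation p = 0.700 and 0.900, where 3 against 3 libraries cannot pass 0.05). Because Fam208a, Suv39h1 and Suv39h2 were read only in part, both ratios compare the genotypes and are no ratios of transcript amounts.

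Levels of different genes can be set against each other only per length and only where the whole transcript was read. Counts were therefore divided by the length of the longest annotated coding transcript. On this scale Trim28 was at 235.0 ± 11.3 CPM per kb (SD, n = 4) in wild type, Mphosph8 at 126.5 ± 14.0 and Atf7ip at 51.3 ± 2.16 CPM per kb. The ranges over all 8 libraries were 216.4 to 245.9, 111.2 to 143.1 and 48.8 to 54.0 CPM per kb, so the order of the 3 genes held in every library. In Morc2b-/- testes the means were 227.9 ± 8.13, 121.5 ± 8.71 and 52.7 ± 0.761 CPM per kb (SD, n = 4). Trim28 and Mphosph8 were above each of the 11 other pathway genes drawn beside them. Copies elsewhere in the genome were not sought for those 11 genes, so this is an order of counts per kb. Chd3, a remodelling ATPase of the NuRD complex that TRIM28 recruits, came next at 82.9 CPM per kb in wild type. Atf7ip stood level with the demethylase gene Kdm3b, at 51.9 CPM per kb, within their spreads.

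**Figure D4:**
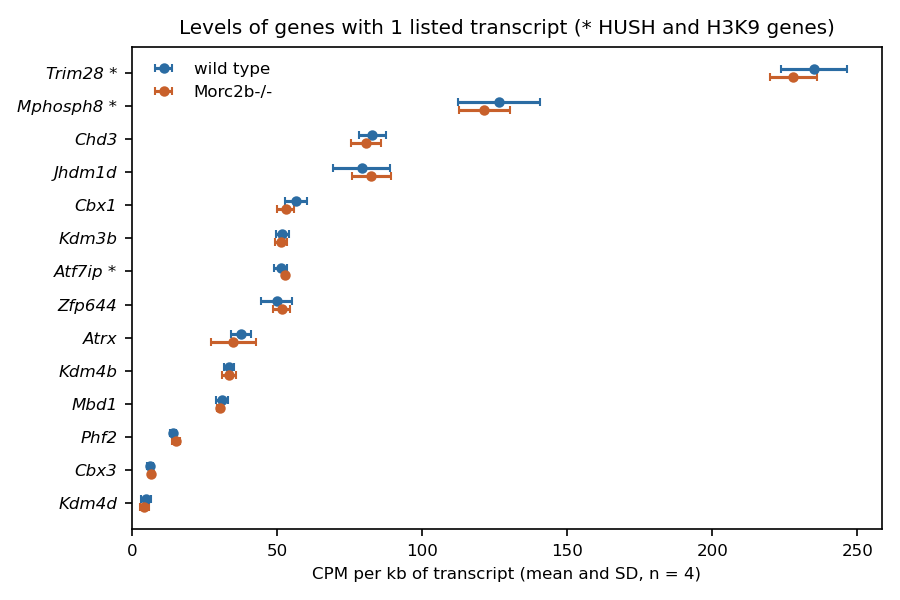
Each row is a pathway gene listed under 1 transcript, and the horizontal axis gives its CPM per kb of the longest annotated coding transcript, as the mean and SD of 4 wild type (blue) and 4 Morc2b-/- (orange) libraries. Trim28 and Mphosph8 lie highest at 235.0 and 126.5 CPM per kb in wild type, and Morc2b is left out.

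The members differed in how much they varied between libraries. Over all 8 libraries the coefficient of variation was 3.22% for Atf7ip, 4.27% for Trim28, 8.97% for Mphosph8, 11.5% for Fam208a, 6.21% for Pphln1 and 15.8% for Suv39h2. Counting error alone would give 1.15%, 0.645%, 0.928%, 5.51%, 9.26% and 15.4%. Pphln1 and Suv39h2 thus varied about as much as, or less than, their counts alone allow, whereas Fam208a and the 3 genes with the most counts varied by more. Among 2219 genes within 2-fold of its level, 6.49% varied less than Atf7ip. Among 1445 genes within 2-fold of its level, 69.2% varied less than Mphosph8, whose spread was the one member spread above the median of its neighbours, 6.90%. The median over the 6 members was 7.59%, beside 13.4% over all genes tested, which were not matched to the members in level. Among genes within 2-fold of their levels, 15.8% varied less than Trim28, 32.4% less than Fam208a, 0.819% less than Pphln1 and 14.3% less than Suv39h2.

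The values of Mphosph8 split by replicate number and not by genotype. The 4 libraries numbered 2 and 4 lay between 373.2 and 420.6 CPM and the 4 numbered 1 and 3 between 326.9 and 345.7 CPM, with no overlap. This split was chosen after the values were seen. How many of all genes tested split in the same way was not counted. Summed CPM of 7 leptotene and zygotene markers, the genes of early meiotic prophase cells, were 1469 and 1615 in wild type replicates 2 and 4 and 1153 and 1630 in Morc2b-/- replicates 2 and 4. They were 1089 and 862.7 in wild type replicates 1 and 3 and 780.7 and 852.3 in Morc2b-/- replicates 1 and 3, so the same 4 libraries were the higher ones. Leydig cell markers ran mostly the other way, with sums of 106.3 and 132.1 CPM in wild type replicates 2 and 4 and of 325.2 and 565.1 CPM in wild type replicates 1 and 3. In Morc2b-/- testes they summed to 110.8 and 320.0 CPM in replicates 2 and 4 and to 621.0 and 198.8 CPM in replicates 1 and 3, so the ranges overlapped. The part of these cell types in the level of Mphosph8 was not tested. Labels give no meaning to the replicate numbers beyond naming the samples.

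**Figure D5:**
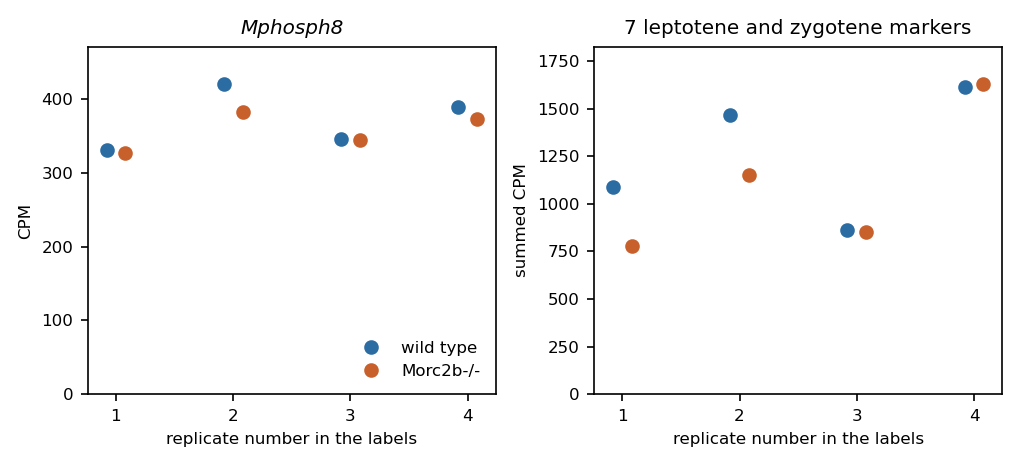
The left panel gives the CPM of Mphosph8 and the right panel the summed CPM of 7 leptotene and zygotene markers, in wild type (blue) and Morc2b-/- (orange) libraries by the replicate number in the labels. In both panels the libraries numbered 2 and 4 lie above those numbered 1 and 3, from 373.2 CPM upward for Mphosph8 and from 1153 CPM upward for the markers.

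Genes whose values ran most like those of a member were found by the root mean square difference of log2 CPM, each gene centred on its own mean over the 8 libraries. For Suv39h2, whose log2 CPM spread most among the 6 tested members, the nearest were Mettl8 (0.0655), Acacb (0.0700) and Stxbp2 (0.0766), beside a root mean square of 0.188 for Suv39h2 itself. For Mphosph8, added after its values were seen, the nearest were Ints6 (0.0209), Nasp (0.0233) and Trappc8 (0.0312), beside 0.119 for Mphosph8 itself. Ints6, which encodes an Integrator subunit, ran at 363.3, 453.3, 361.7 and 411.1 CPM in wild type and 350.3, 411.4, 371.0 and 405.5 CPM in Morc2b-/- replicates 1 to 4. That Ints6 orders the libraries as Mphosph8 does follows from how it was found.

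The wider pathway was described through 36 other genes in lists by role, of which 2 (Setdb2 and Uhrf1) had 0 counts and 28 were tested. At an adjusted p under 0.05 in edgeR's test 0 were called, and at an unadjusted p under 0.05 there was 1, the targeted gene Morc2b. Its log2 fold change was -4.09 (unadjusted p = 0.00793, adjusted p = 0.9998 in edgeR's test). Among the other 27, 10 log2 fold changes were above 0 and 17 below, with a median of -0.04 and a smallest unadjusted p of 0.169, for Wiz, in edgeR's test. Morc2a, the direct partner of HUSH, was at 42.1, 48.7, 44.7 and 42.5 CPM in wild type and 41.4, 45.8, 41.4 and 42.3 CPM in Morc2b-/- replicates 1 to 4. Its genotypes overlapped, and its log2 fold change was -0.06. Fam208b, the paralog of Fam208a, also had a log2 fold change of -0.06.

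By role, the HP1 genes, whose products read H3K9 methylation, had log2 fold changes of -0.09 for Cbx1, 0.10 for Cbx3 and 0.32 for Cbx5. Cbx5 rested on 0.520 ± 0.117 CPM in wild type and 0.642 ± 0.272 CPM in Morc2b-/- testes (SD, n = 4). Of 6 tested genes around SETDB1 and the KRAB zinc finger proteins, 2 log2 fold changes were above 0 and 4 below, from -0.24 for Smarcad1 to 0.11 for Atf7ip2, the relative of Atf7ip. Among 6 tested EHMT partners 1 was above 0 and 5 were below, with L3mbtl2 at -0.35 and Wiz, the zinc finger partner of G9a and GLP, at -0.27. Wiz was at 1.998 ± 0.176 CPM in wild type and 1.66 ± 0.260 CPM in Morc2b-/- testes (SD, n = 4). The H3K9 demethylases, which remove the mark, gave 8 tested genes from -0.21 for Kdm4d to 0.10 for Phf2, 5 above 0 and 3 below. Of the other heterochromatin genes, Atrx had a log2 fold change of -0.11 and Prdm2 of -0.02. Apart from Morc2b, none of the tested genes in these lists had an unadjusted p under 0.05 in edgeR's test on all 8 libraries. Without both libraries numbered 3, the direction turned in 6 of the 27 genes, among them Atrx (0.02) and Prdm2 (0.04). Without Morc2b-/- replicate 1, Atrx was at -0.27 (unadjusted p = 0.0258, adjusted p = 0.9994 in edgeR's test).

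The promoters of the 10 genes shared a feature that the choice of members did not use. RefSeq (GRCm38.p6) gives 13 windows for the 10 genes, each from 250 bases before to 50 bases after a transcript start. These windows held 15 to 53 CpG dinucleotides and had an observed over expected CpG ratio of 0.703 to 1.21, with a median of 0.89. The median over all 32851 windows was 0.384, and 28.9% of them reached 0.703. That cut-off is the lowest member value, so every member window reaches it by construction. The windows were not limited to genes with counts, and genes of similar level were not compared. The GC box GGGCGG, searched on both strands, was in 11 of the 13 member windows, from 9 of the 10 genes, and in 35.7% of all windows. TATAAA was in 0 of the 13 and in 13.6% of all windows. With 13 windows, a count of 0 says little on its own. The CRE palindrome TGACGTCA was found in 1 of the 13 member windows, that of Suv39h2, and in 1.79% of all windows. Also searched were CCAAT, in 5 of the 13 (37.4% of all windows), and the ETS core CCGGAA, in 3 (14.9%). The E-box CACGTG was in 2 (7.15%) and the YY1 core AAGATGG in 2 (6.34%). A match is a description of the letters and says nothing about binding. The 250 bases before the start are shown for the 3 genes read over their whole transcripts, from chr14:56667998-56668247, chr7:13023902-13024151 and chr6:136518601-136518850 (GRCm38.p6, all plus strand), with each CpG in capitals: 19 in Mphosph8, 17 in Trim28 and 20 in Atf7ip.
Mphosph8: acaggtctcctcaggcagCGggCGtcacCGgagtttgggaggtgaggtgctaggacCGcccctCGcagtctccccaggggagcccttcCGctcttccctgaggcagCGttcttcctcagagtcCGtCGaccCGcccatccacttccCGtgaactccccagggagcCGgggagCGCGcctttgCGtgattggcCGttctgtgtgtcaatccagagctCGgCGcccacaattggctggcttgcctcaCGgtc
Trim28: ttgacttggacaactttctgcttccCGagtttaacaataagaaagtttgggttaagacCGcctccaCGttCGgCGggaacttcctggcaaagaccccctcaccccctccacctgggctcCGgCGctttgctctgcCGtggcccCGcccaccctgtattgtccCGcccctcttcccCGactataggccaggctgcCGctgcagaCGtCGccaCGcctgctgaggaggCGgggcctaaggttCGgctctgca
Atf7ip: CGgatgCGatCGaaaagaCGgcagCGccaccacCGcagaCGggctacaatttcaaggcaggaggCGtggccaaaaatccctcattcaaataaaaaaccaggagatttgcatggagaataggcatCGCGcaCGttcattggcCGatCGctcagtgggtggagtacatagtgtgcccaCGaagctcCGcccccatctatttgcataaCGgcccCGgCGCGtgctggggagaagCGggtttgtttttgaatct

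Sequence and annotation also bear on how far single values can be read. No stretch of the Mphosph8, Trim28, Atf7ip, Fam208a or Suv39h2 coding sequence had a match elsewhere in NCBIM37 of at least 90% identity over 75 bases, the number of sequencing cycles. In Setdb1, 10.5% of the coding sequence matched a site at chr3:95232485-95234362 at 99.8% identity, and in Suv39h1, 18.0% matched a site on chromosome X at 93.7%. A stretch of 91 bases of Ehmt2, 2.4% of its coding sequence, had such matches at 359 sites, and Ehmt1 had 0 such sites. No member shared exonic bases with another gene on the same strand. On the opposite strand 10.7% of the exonic bases of Mphosph8, 9.98% of Suv39h2, 11.3% of Suv39h1 and 2.51% of Fam208a overlapped another gene. The library kit kept the strand, but the strand setting of the counting is not given in the sources used here, so reads of these overlaps may not be separated.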

How the data were processed

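RNA was sequenced as stranded mRNA libraries from 8 pairs of testes. The authors trimmed and mapped the reads to mm9 with Tophat, and deposited raw read counts per RefSeq transcript for each sample, neither pooled nor normalized. The counting program and its strand setting are not given in the sources used here. Tally lines, which name no transcript, were left out of library sizes. Reads on more than 1 listed transcript, 26.8% to 28.8% of the uniquely aligned reads, had been set aside by the authors. Accessions were matched to symbols through RefSeq (35522 of 35819) and counts were summed per symbol.

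Genotypes were compared over all 8 samples with edgeR 4.0.16 (R 4.3.3; TMM, filterByExpr, glmQLFit and glmQLFTest) and Benjamini-Hochberg adjustment at 0.05. Intervals are from the quasi-likelihood test. P-values measure the spread between these samples, and no 2 samples agreed within sampling noise (chi-square per degree of freedom at least 6.86). Ratios were taken between log2 CPM values (prior count 2) and compared by exact permutation tests. Alternatives were RLE scaling, DESeq2 1.42.0, limma-voom (limma 3.58.1), other low-count filters, transcripts as units, the replicate number as a block, and each sample left out. Leaving out both samples numbered 3 was added after the data were seen.

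The members and lists were chosen with earlier results of these data known. Named genes are the members, the genes of the fixed pathway lists, and the 3 genes nearest to the tested member with the largest spread. Outside this rule, the 3 genes nearest to Mphosph8, and Pkmyt1, the gene called by DESeq2, are named after their values were seen. Copies were sought with BLAST 2.17.0 in NCBIM37, and lengths and positions come from GENCODE on that build, another annotation than that used for counting. Fam208b had no matching length. Counting intervals and limits cover counting error only.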

Additional observations from a re-analysis of the deposited data

How the results depend on the processing

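In edgeR, 0 genes and 0 members were called under each alternative run, including with both samples numbered 3 left out. DESeq2 called 1 gene, Pkmyt1 (log2 fold change -0.49, adjusted p = 0.00931), and 0 members. Genes at an unadjusted p under 0.05 numbered 249, against 262 in DESeq2, 226 in limma-voom, 572 with the replicate block and 204 to 504 with 1 sample left out. None of these held a member. Of 119 alternative log2 fold changes of the 6 tested members, Morc2a and Morc2b, 111 kept their direction. The 8 that reversed were those of Pphln1 and Mphosph8. Transcripts as units were not counted among the 119, and there the Pphln1 transcript tested was at 0.012, against -0.0013 for the gene in the main fit. Pphln1 was at 0.0028 in limma-voom and 0.0020 with the replicate block, and ranged from -0.053 to 0.041 with 1 sample left out. Mphosph8 ranged from -0.11 to 0.0086, the highest value without wild type replicate 2. With 1 sample left out, the ratio of Mphosph8 to Fam208a differed by -0.0080 to 0.17, the lowest without Morc2b-/- replicate 2, and that of Suv39h2 to Suv39h1 by -0.38 to -0.05. Morc2b ranged from -6.23 to -3.26 and was at -6.62 without both samples numbered 3. Same-numbered samples of the genotypes had deviations correlated at -0.322 to 0.453 across genes, and 4 of 8 samples matched best to their own number, so the numbers were not taken as pairs. The cause of each change was not tested. The counts give no limit on expression for Setdb1, Ehmt1 and Ehmt2, and Suv39h1 and Suv39h2 are limited by 66 and 336 counts in all.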

Other observations

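The marker sums of the other cell types were above 0 in all libraries, and 0 markers were at 0 counts over the 8 libraries together. Few counts fell on Insl3 and Hsd3b1 of the Leydig cell markers and on Myh11 of the peritubular myoid markers, whose other gene is Acta2. The same holds for Gata4 of the Sertoli cell markers and Gfra1 and Kit of the spermatogonia markers. Pachytene markers summed to between 23.6 and 296.8 CPM in wild type and between 26.6 and 151.7 CPM in Morc2b-/- libraries, Leydig cell markers to between 106.3 and 565.1 and between 110.8 and 621.0 CPM, peritubular myoid markers to between 670.4 and 1345 and between 685.4 and 848.6 CPM, and macrophage markers to between 58.8 and 71.3 and between 55.7 and 79.7 CPM. Each of these ranges overlapped between the genotypes. In the 14 sets of 4 libraries formed by the 7 members with counts and the 2 genotypes, the library farthest from its neighbour passed Dixon's 95% critical value of 0.829 in 0 sets.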
